A study of Mus musculus with 9 samples.

Results

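The genes described here encode the proteins of the mitochondrial ribosome. They were taken by name, as every gene whose symbol is Mrpl or Mrps followed by a number and at most one letter and whose value was at least 1 in at least 3 of the 9 libraries. All 74 symbols of this form passed, out of 20368 genes in the table and 9543 that passed the same filter. The member nearest the threshold was Mrpl19, with a mean of 1.17, and no matching symbol lay below it. Of the 74, 48 belong to the large subunit and 25 to the small subunit. Names do not always give the subunit, since Mrps30 and Mrps18a are large subunit proteins. Mrps36 belongs to neither, because its product is known as a component of the oxoglutarate dehydrogenase complex. A pair of further genes share a row with a neighbour and were not members: Mrpl53 with Ccdc142, at 9.31 to 13.7, and Mrps6 with Slc5a3, at 0.109 to 0.317.

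RNA was sequenced from CD71+Ter119+ cells, a gate for erythroblasts, that were sorted from the spleens of C57BL/6 mice aged 4 weeks. The 3 genotypes were wildtype, Dhh+/- (heterozygous) and Dhh-/- (knockout), with 3 libraries each and no further treatment. Dhh encodes Desert hedgehog, a secreted ligand. Nothing in the labels says that the libraries of a genotype came from separate mice, so a p-value here tests against library-to-library spread that may be technical. How the Dhh allele was made is not given in the sources used here.

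The mitochondrial ribosome translates the few proteins that the mitochondrial genome encodes, all of them subunits of the oxidative phosphorylation complexes. Its RNAs come from the mitochondrial genome, but its proteins are encoded in the nucleus, made in the cytosol and imported. Some descend from proteins of the bacterial ribosome and others are found only in mitochondria. Erythroblasts depend on mitochondria for the first and last steps of heme synthesis, and lose them as they mature into red cells.

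Depth fell into separate ranges. Replicate 2 of each genotype and wildtype replicate 1 were shallow, with 7.05 to 9.66 M recovered reads. The rest were deep, with 13.05 to 14.23 M. Wildtype was the only genotype with more shallow than deep libraries, so its comparisons with the others were unbalanced in depth. Dhh was at 0 in 8 of the 9 libraries and at 0.0267 in heterozygous replicate 1, so it could not check the genotypes. All 11 erythroid markers in the table passed the filter. Globin genes took 4.14 to 5.06% of the summed values in the shallow libraries and 2.52 to 2.86% in the deep ones. Wildtype replicate 3 stood apart. Its summed B cell markers were 82.9 against 324 to 1314 elsewhere, its T and NK cell markers 9.39 against 42.8 to 96.0, and its macrophage and monocyte markers 143 against 435 to 1444. Its neutrophil markers, at 330, were above those of heterozygous replicate 1, at 257. Of the 6 endothelial and stromal markers in the table, 1 passed the filter. No marker on any of these lists was at 0 in every library.

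Because the members are spread over the nuclear genome, the stretches around their start sites show what letters they share. A few short motifs were searched on both strands in windows of 300 bases, 250 before and 50 from the start onward, taken from RefSeq on GRCm38.p6. They were GCATGCGC for NRF1, a regulator of nuclear genes for mitochondria, CCGGAAGT for the ETS family, and ATGGCGGC for YY1. Windows existed for 65 of the 74 members, 71 windows in all. The first set below is from Mrpl32 and Mrpl9, whose values are followed further on, and shows the NRF1 letters in capitals.
Mrpl32, chr13:14613041-14613070, minus strand: gcggacttaacGCATGCGCtcagcccgcgt
Mrpl32, chr13:14613104-14613133, minus strand: ttgacccttgcGCATGCGCaagaggggcct
Mrpl9, chr3:94443299-94443328, plus strand: ggcgcagctgcGCATGCGCggggtccttct
The next set shows the ETS letters beside the starts of Mrpl3 and Mrps22, with first bases at positions -19 and -11 (the start base is position 0).
Mrpl3, chr9:105053238-105053267, plus strand: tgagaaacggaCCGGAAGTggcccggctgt
Mrps22, chr9:98601672-98601701, minus strand: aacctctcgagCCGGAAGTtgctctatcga
The last set shows the YY1 letters in 5 members, 3 of the large subunit by their Mrpl names, 1 of it by another name (Mrps18a), and 1 of the small subunit (Mrps27).
Mrpl9, chr3:94443340-94443369, plus strand: gctccgctgtcATGGCGGCctctgtggctc
Mrpl35, chr6:71823740-71823769, minus strand: caggctgcaagATGGCGGCttccatcttca
Mrpl37, chr4:107066819-107066848, minus strand: cacgggcaaagATGGCGGCgtccaggtaga
Mrps18a, chr17:46111007-46111036, plus strand: tgcgttccaagATGGCGGCcctcagggctc
Mrps27, chr13:99344792-99344821, plus strand: tgcgctccaagATGGCGGCtcccatggtgc

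The NRF1 letters were found in 7 of 65 members, or 9.86% of member windows, against 5.61% of windows of tested genes and 2.71% of all 32851 windows. Mrpl32 held them at 4 places, of which one pair overlaps because the letters read nearly alike on both strands. The ETS letters were found in 11 members, or 15.5% of windows, against 8.96% of tested genes and 3.89% of all windows. The YY1 letters were also found in 11 members, or 15.5% of windows, against 5.42% and 2.24%. In 10 of those 11 (90.9%) they lay on the gene's own strand at or after the start base, against 49.2% of the 510 windows of tested genes that hold them. These letters begin with ATG, so they can also be the start of a coding sequence. In all, 25 windows (35.2%) held at least 1 of the motifs, against 18.3% and 8.23%. A TATA element, searched as TATAAA, was in 7.04% of member windows, 6.85% of tested windows and 13.6% of all windows. A match is a stretch of letters and does not show that a factor binds there.

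The starts of the members also often face another gene. In GENCODE M21, 26 of the 74 (35.1%) had the start of a coding gene on the opposite strand within 1000 bases, against 16.7% of all tested coding genes. The members lie on 17 chromosomes. The partners were of mixed kinds, such as Helq, Ncapd2, Hira and Psma2, and their functions were not counted or compared with those of other genes. Some have other mitochondrial functions: Mrps12 faces Sars2, the mitochondrial seryl-tRNA synthetase, and Mrpl36 faces Ndufs6, a subunit of complex I. Mrpl49 faces Fau, which encodes a cytosolic ribosomal protein. In 1 case both genes are members, Mrps11 of the small subunit and Mrpl46 of the large. The 41 bases between their RefSeq starts, 73.2% G and C, are shown because they separate the starts of both genes.
Between Mrpl46 and Mrps11, chr7:78783090-78783130, plus strand: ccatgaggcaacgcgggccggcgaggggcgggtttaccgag

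Mrps11 had 20.9, 23.0 and 36.4 FPKM (fragments or reads per kilobase, scaled between libraries) in the wildtype libraries, 22.7, 18.1 and 22.0 in the heterozygous and 24.5, 22.9 and 22.1 in the knockout libraries. Mrpl46 had 11.5, 12 and 17.5, then 10.5, 10.5 and 10.9, then 12.7, 10.3 and 8.96 in the same order. Both were highest in wildtype replicate 3. The ratio of Mrps11 to Mrpl46 was 2.04 ± 0.228 (SD, n = 9) and ranged from 1.72 to 2.47. Their exons overlap in the annotation, so they may share reads where strand was not used in counting.

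Levels of the members were spread widely. The median of the 74 means over 9 libraries was 14.6 FPKM, with an interquartile range of 8.45 to 24.5, against a median of 9.40 for all tested genes. Large subunit members had a median of 15.4 and small subunit members 13.5. Proteins with a bacterial counterpart had medians of 15.9 in the large subunit (29 genes) and 18.1 in the small (15 genes). Mitochondria-specific proteins had 14.3 (19 genes) and 10.2 (10 genes). The 76 cytosolic ribosomal protein genes, measured in the same libraries, had a median of 392 FPKM, and 75 of them were above 50 where 7 members were.

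The highest large subunit member was Mrpl20, which encodes a counterpart of bacterial L20, with 91.8, 74.9 and 116 FPKM in the wildtype, 79.7, 68.9 and 98.9 in the heterozygous and 92.6, 74.3 and 103 in the knockout libraries. Its genotype means were 94.1 ± 20.5, 82.5 ± 15.2 and 89.8 ± 14.3 (SD, n = 3 each), and the 3 groups overlapped. Mrps36 was close to it, at 87.0 ± 20.5, 86.2 ± 9.63 and 88.2 ± 19.2. Mrps18c had 86.1 ± 18.4, 79.8 ± 2.14 and 90.3 ± 15.5. These 3 genes did not differ in level beyond their spread between libraries. They were followed by Mrpl52, at a mean of 66.3, Mrps21, at 57.2, Mrpl30, at 53.2, and Mrpl18, at 52.8.

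Mrps18c is 1 of 3 related genes that descend from the bacterial S18 gene and whose proteins occupy separate places in the ribosome. Its product takes the place of S18 in the small subunit, that of Mrps18b lies elsewhere in the small subunit, and that of Mrps18a lies in the large subunit. Their levels differed: Mrps18c ranged from 70.9 to 107 FPKM over the 9 libraries, Mrps18a from 13.2 to 18.1 and Mrps18b from 7.30 to 13.8. The range of Mrps18c overlapped neither of the others, while those of Mrps18a and Mrps18b met.

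At the low end, 9 members had means under 5 FPKM. Mrpl19 had 1.13, 0.895 and 1.24 in the wildtype, 0.958, 1.28 and 1.25 in the heterozygous and 1.06, 1.81 and 0.919 in the knockout libraries. The next lowest of the 6 low members of the large subunit were Mrpl1, part of the mobile L1 stalk beside the tRNA exit site, at 1.74 to 2.64, and Mrpl17, at 2.00 to 2.80, followed by Mrpl44, Mrpl11 and Mrpl35, with means of 3.41, 3.94 and 4.16. In the small subunit the low members were Mrps25, at 1.25 to 1.96, Mrps2, at 2.29 to 4.78, and Mrps27, a protein with pentatricopeptide repeats, at 1.99 to 4.24. The plot of the levels shows all 74 genes in every library.

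**Figure D1:**
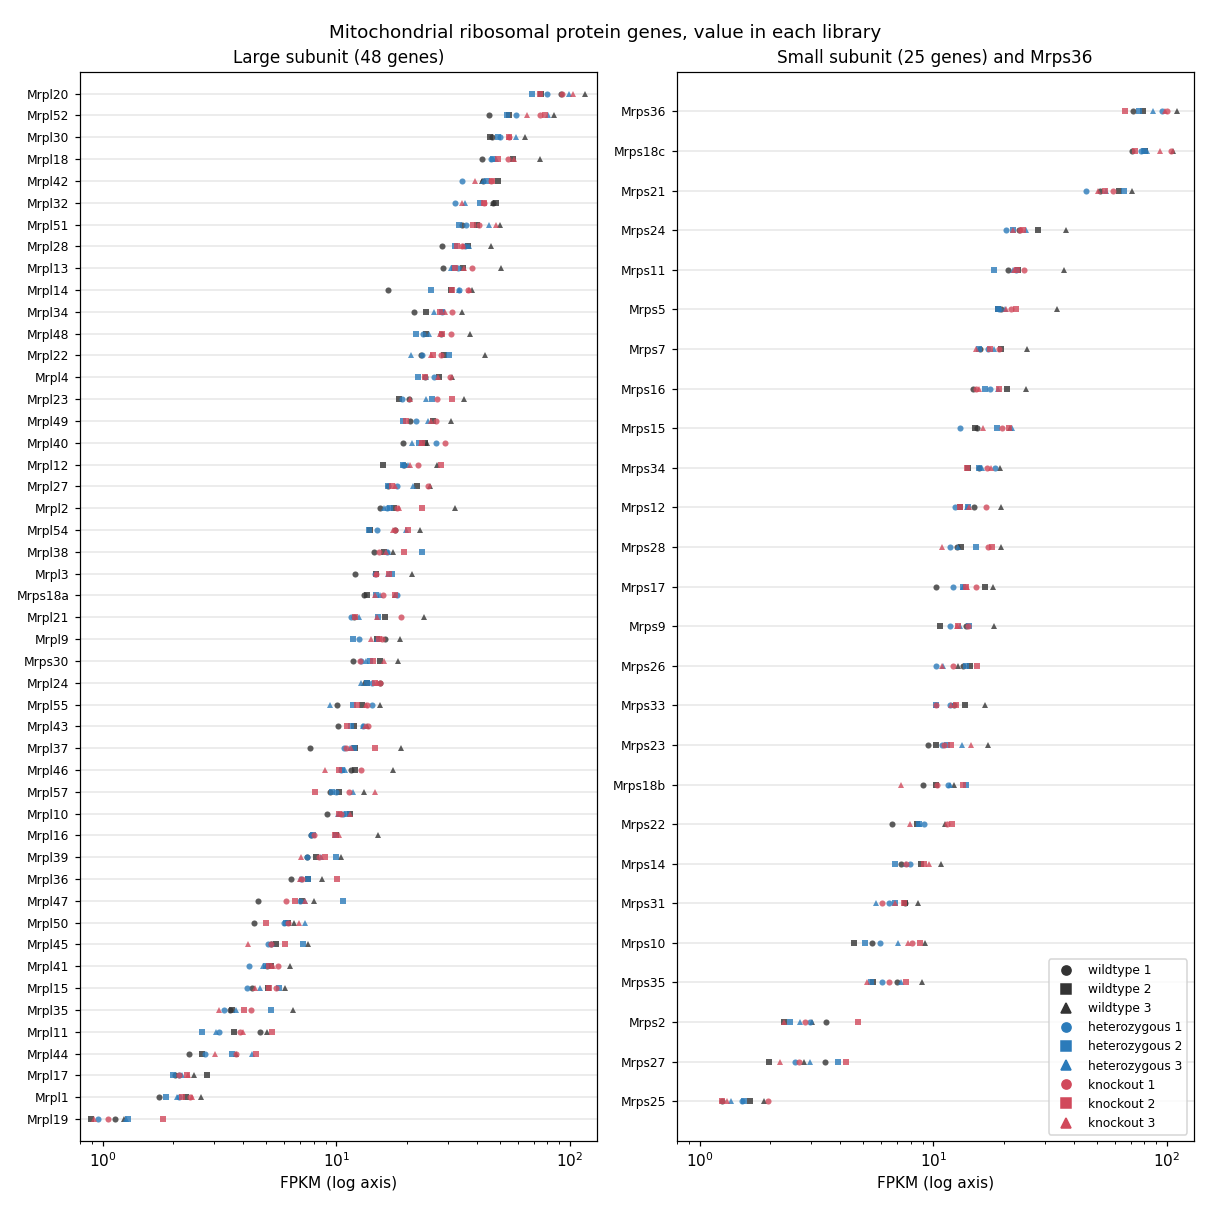
Each row is a gene and each point its value in 1 library, in FPKM on a log axis, coloured by genotype and shaped by replicate number. Levels run from 1.17 (mean of Mrpl19) to 88.8 (mean of Mrpl20), and the black triangles, wildtype replicate 3, lie at the right of most rows.

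The ends of this order went with the length by which the values were divided. The length implied by the deposited values was 407 to 959 bases for the 7 members above 50 FPKM, and 1424 to 6712 bases for the 9 under 5. In reads scaled between libraries and not divided by length, the members differed by 12.8-fold from lowest to highest, against 75.8-fold in FPKM. The ends differed in these reads too, with medians of 490 for the 7 above 50 FPKM, 104 for the 9 under 5 and 186 for all 74. Since FPKM is divided by length, part of its relation to length is built in. Mrpl51 stood 10th by FPKM and 2nd by scaled reads. Mrps36 remained among the first by both, with 713 scaled reads. A level of Mrpl17 or Mrps25, whose implied lengths were 6712 and 6076 bases, therefore rests on a length that may count sequence absent from the transcripts of these cells, which was not tested. The length of a gene is the same in every library, but on the log2(FPKM + 1) scale it still bears on the size of a low gene's difference. For Mrpl11 the difference between heterozygous and wildtype was -0.46 on this scale and -0.57 when 0.1 was added in place of 1.

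**Figure D2:**
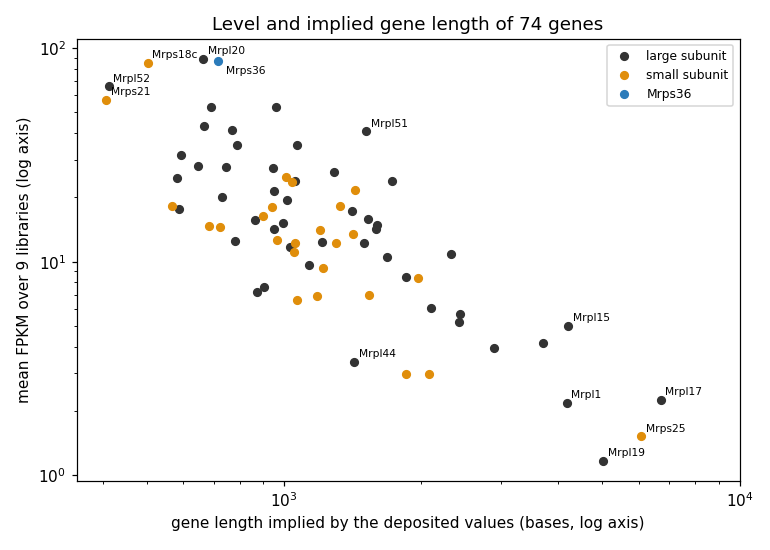
Each point is a gene, with the length implied by the deposited values in bases on the x axis and the mean FPKM over 9 libraries on the y axis, both log axes. The 7 genes above 50 FPKM have implied lengths of 407 to 959 bases, and Mrpl17, Mrps25, Mrpl19 and Mrpl1, with 4170 bases or more, lie at the lower right.

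Between libraries the members varied about as much as other genes. Their median residual SD around the genotype means was 0.23 on the log2(FPKM + 1) scale, against 0.23 for all tested genes and 0.21 for tested genes within the members' interquartile range of levels. In 62 of the 74 the highest of the 9 values was no more than 2-fold above the lowest. Among members with a mean of at least 5, Mrpl24, whose product lies near the exit of the peptide tunnel, varied least (SD 0.08). It had 15.4, 13.5 and 13.2 FPKM in the wildtype, 14.2, 13.6 and 12.8 in the heterozygous and 15.4, 14.6 and 14.9 in the knockout libraries. Mrpl10 and Mrpl41 were next, at SDs of 0.10 and 0.11.

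The members that varied most were Mrpl14, Mrpl37 and Mrpl23, at SDs of 0.38, 0.37 and 0.35. Mrpl14 had 16.7, 30.9 and 38.1 FPKM in the wildtype libraries and 25.3 to 36.9 in the other 6. Mrpl37 had 7.70, 12 and 19.0 in the wildtype libraries and 10.8 to 14.7 elsewhere. Mrpl23 had 20.4, 18.6 and 35.3 in the wildtype libraries and 19.1 to 31.3 elsewhere. In each of these genes the wildtype libraries spanned a wider range than the other 6 libraries together.

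Many members were highest in the same library. Wildtype replicate 3 held the highest of the 9 values in 50 of the 74 members (67.6%), against 31.1% of all tested genes. It was highest in 75 of the 76 cytosolic ribosomal protein genes. By class it was highest in 20 of 29 large subunit proteins with a bacterial counterpart, 11 of 19 mitochondria-specific ones, 13 of 15 small subunit proteins with a bacterial counterpart and 5 of 10 mitochondria-specific ones. Wildtype replicate 1 held the lowest value in 27 members (36.5%), against 18.8% of all tested genes, and the highest in none.

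The value in wildtype replicate 3 was 1.38-fold the mean of wildtype replicates 1 and 2 at the median member, with a range of 0.909 to 1.96, and lay above that mean in 70 of the 74. The same ratio had a median of 1.34 in the cytosolic ribosomal protein genes and 1.06 in all tested genes. It was largest for Mrpl2 (15.4, 17.6 and 32.3 FPKM in wildtype replicates 1 to 3), a protein near the peptidyl transferase centre, and for Mrpl37. Mrpl32, Mrpl42, Mrpl24 and Mrps26 lay below 1. Wildtype replicate 3 was also the deepest wildtype library, with 13.2 M recovered reads against 8.66 and 9.66 M. Globin genes took 2.86% of its summed values, against 4.56 and 4.14%. The same library had the lowest summed B cell, T and NK cell, and macrophage and monocyte markers of the 9. Wildtype replicate 1 had the highest B cell and T and NK cell markers. Endothelial and stromal sums were also lowest and highest in these libraries, at 0.688 and 13.4, but were mostly Pecam1 (0.634 and 12.9). Megakaryocyte and platelet markers summed to 47.9 in wildtype replicate 3, against 38.8 to 61.4 elsewhere. Neither the part of these markers in the members' values nor that of depth in the ratio above was tested. In bulk samples such as these, a change in the share of cells and a change in RNA per cell cannot be told apart.

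**Figure D3:**
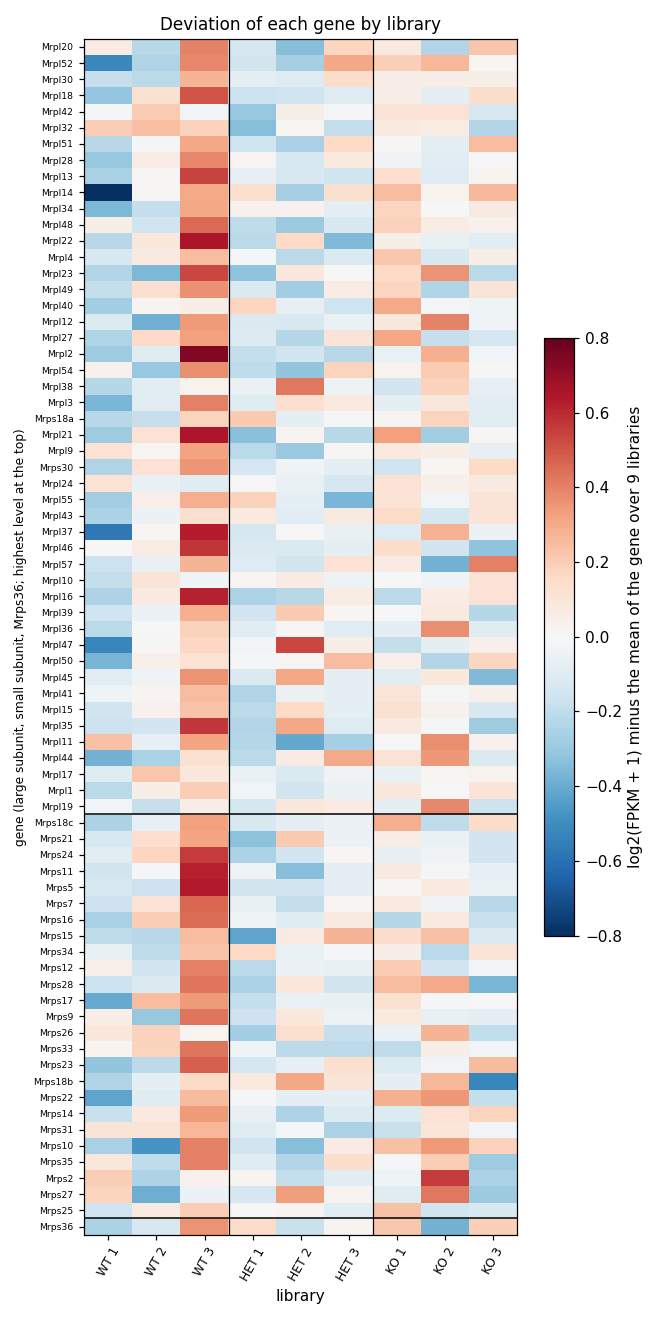
Each cell shows log2(FPKM + 1) of a gene (rows, large subunit above the first line, small subunit below it, Mrps36 last) in a library (columns) minus the mean of that gene over the 9 libraries. Wildtype replicate 3 is above the mean in most rows, and wildtype replicate 1 holds the lowest value in 27 of 74.

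Summed over the 74 genes, the members had 1321, 1465 and 1943 FPKM in the wildtype libraries, 1392, 1412 and 1505 in the heterozygous and 1610, 1506 and 1523 in the knockout libraries. The genotype means were 1576 ± 326, 1436 ± 60.4 and 1546 ± 56.1 (SD, n = 3 each). The wildtype range enclosed all 6 other libraries, and the 3 knockout libraries were all above the 3 heterozygous ones, by less than 1 FPKM at the nearest pair. With each library rescaled to the same summed value, the means were 1503 ± 305, 1516 ± 108 and 1544 ± 79.1, and the heterozygous and knockout ranges overlapped. The members took 0.315 to 0.464% of the summed values.

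The balance between the subunits varied less than their total. The ratio of the summed large subunit to the summed small subunit genes was 2.30 ± 0.0777 (SD, n = 9) and stayed between 2.19 and 2.44, while the total ranged from 1321 to 1943. A change shared by both sums of a library cancels in this ratio, and no ratio of other gene sets was computed for comparison. By genotype the ratio was 2.24 ± 0.0105 (wildtype), 2.30 ± 0.0965 (heterozygous) and 2.35 ± 0.0797 (knockout; SD, n = 3 each). The 3 knockout libraries (2.30, 2.31 and 2.44) all lay above the 3 wildtype libraries (2.23, 2.26 and 2.24), while the heterozygous range overlapped both. This was not tested, since no p was computed over the members.

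**Figure D4:**
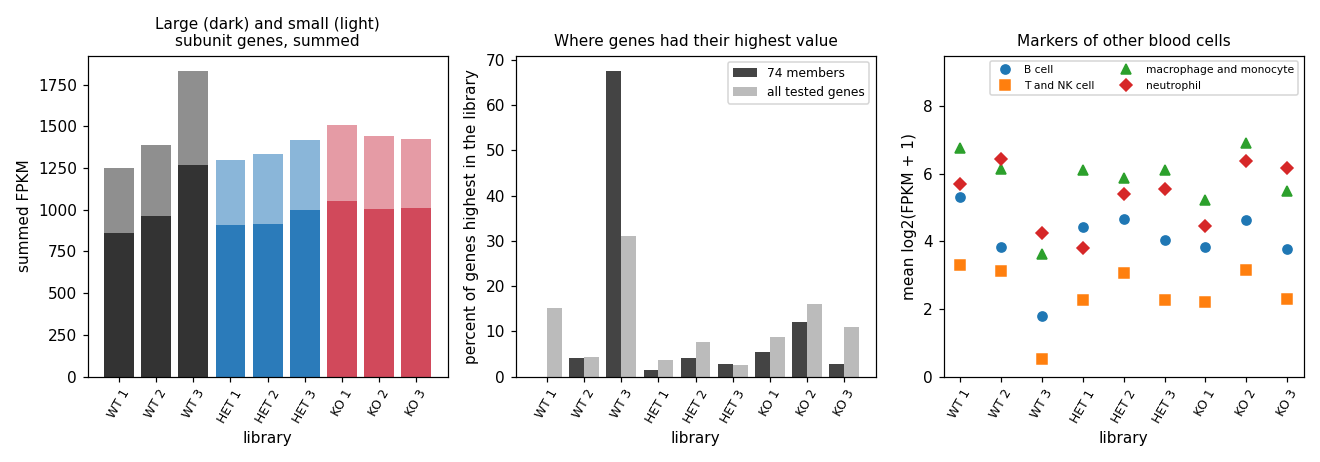
For the 9 libraries (WT wildtype, HET heterozygous, KO knockout), the left panel shows the summed FPKM of large and small subunit genes, the middle panel the percent of members and of all tested genes with their highest value in that library, and the right panel the mean log2(FPKM + 1) of 4 lists of markers of other blood cells. Wildtype replicate 3 has the tallest bar, 67.6% of the members' highest values, and the lowest B cell, T and NK cell and macrophage and monocyte markers.

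In the knockout against the wildtype libraries, which asks whether loss of Dhh changes these genes, no member passed the threshold (limma across all genes, adjusted p = 0.9997 for every member). Of all tested genes, 0% passed as well. The median log2 difference of the 74 was -0.02, with 32 higher and 42 lower, and turned to 0.04, with 45 higher, when each library was rescaled to the same summed value. None had an unadjusted p below 0.05, against 0.451% of all tested genes. If no gene differed and the test kept its level, a share of about 0.05 of genes would lie below it on average. The shares of all tested genes were smaller than that here and in the comparisons below, for a reason that was not tested. A lack of low p-values or of passing genes therefore does not show a lack of change. In 2 members, Mrpl32 and Mrps31, all knockout values lay below all wildtype values, against 1.4% of all tested genes in that direction. The same held for 9 of the 76 cytosolic ribosomal protein genes, of which 74 were lower, with a median of -0.15.

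Mrps31, a mitochondria-specific protein of the small subunit, had 7.58, 7.57 and 8.57 FPKM in the wildtype and 6.04, 7.51 and 6.86 in the knockout libraries. The largest differences at the other end were those of Mrps10 (0.36 ± 0.22, log2 difference ± SE) and Mrpl14 (0.35). Mrpl46 had the lowest difference, at -0.32 ± 0.18, and Mrps24 was next, at -0.30 ± 0.17. Mrps24 had 23.2, 28.0 and 36.8 FPKM in the wildtype and 23.5, 24.2 and 22.1 in the knockout libraries, so that the groups overlapped through wildtype replicate 1.

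The median depended on wildtype replicate 3. Without it the median log2 difference was 0.11, with 61 of the 74 members higher in the knockout libraries. Without wildtype replicate 1 it was -0.10, with 19 higher. In both cases no gene in the table passed the adjusted threshold. Groups that did not overlap without wildtype replicate 3 were 2 lower and 14 higher, or 2.7% and 18.9% of the members, against 4.54% and 6.53% of all tested genes.

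In the heterozygous against the wildtype libraries, no member passed the threshold (limma, adjusted p = 0.9999 for every member), and 0% of all tested genes passed. The median log2 difference was -0.10, with 20 higher and 54 lower, and turned to 0.03, with 40 higher, at the same summed value per library. In the small subunit 20 of 25 were lower, or 14 after that rescaling. In the large subunit 34 of 48 were lower, or 20 after it. An unadjusted p below 0.05 was found for 4 members, all lower, and for 1.18% of all tested genes. They were Mrpl32, Mrpl11, Mrps33 and Mrpl9. In 7 members all heterozygous values lay below all wildtype values, against 3.07% of all tested genes: these 4 with Mrps31, Mrpl41 and Mrpl46. The same held for 21 of the 76 cytosolic ribosomal protein genes, of which 72 were lower, with a median of -0.23.

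Mrpl32, a large subunit protein whose maturation by a protease of the inner membrane is known as a step of ribosome assembly, had 47.0, 48.4 and 46.6 FPKM in the wildtype, 32.1, 41.2 and 35.7 in the heterozygous and 42.9, 42.7 and 34.6 in the knockout libraries. The 3 wildtype values lay close together and above all 6 others. The difference between heterozygous and wildtype was -0.38 ± 0.13 on the log2 scale (limma, unadjusted p = 0.0185, adjusted p = 0.9999). Wildtype replicate 3 was not the highest library for this gene, and without it the difference was -0.39. With each library rescaled to the same summed value it was -0.24 (limma, unadjusted p = 0.105). Without heterozygous replicate 1 it was -0.30 (limma, unadjusted p = 0.0814), and with quantile normalization -0.33 (limma, unadjusted p = 0.0636). Mrpl32 also faces another gene, Psma2 of the proteasome, and its start carries the NRF1 letters shown above. Whether either feature goes with its values was not tested.

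Mrpl11, at the base of the stalk that binds translation factors, had 4.72, 3.65 and 5.06 FPKM in the wildtype, 3.16, 2.66 and 3.05 in the heterozygous and 3.88, 5.29 and 3.97 in the knockout libraries. All 3 heterozygous values were below the other 6, while wildtype and knockout overlapped. Its difference was -0.46 ± 0.17 between heterozygous and wildtype (limma, unadjusted p = 0.0215) and 0.44 ± 0.17 between knockout and heterozygous (limma, unadjusted p = 0.0277), with no adjusted p under the threshold. At the same summed value per library the differences were -0.35 and 0.38, with limma's unadjusted p at 0.0801 and 0.062. Without wildtype replicate 3 the first was -0.38 (limma, unadjusted p = 0.0615). Without knockout replicate 2 the second was 0.32 (limma, unadjusted p = 0.0904). Both comparisons use the same heterozygous libraries. The knockout differed from the wildtype by -0.03 ± 0.17.

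Mrps33, a mitochondria-specific protein of the small subunit, had 12.2, 13.7 and 16.6 FPKM in the wildtype and 11.7, 10.3 and 10.3 in the heterozygous libraries, a difference of -0.36 ± 0.14. Mrpl9, a counterpart of bacterial L9, had 16.1, 14.9 and 18.7 in the wildtype and 12.6, 11.8 and 14.9 in the heterozygous libraries, a difference of -0.32 ± 0.14. The groups of Mrpl9 nearly met, with wildtype replicate 2 and heterozygous replicate 3 both at 14.9. For both genes wildtype replicate 3 was the highest value, and without it the differences were -0.25 and -0.23, with limma's unadjusted p at 0.112 and 0.125. At the same summed value per library they were -0.23 and -0.18, with limma's unadjusted p at 0.18 and 0.249.

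Without wildtype replicate 3 the direction over the members turned: the median log2 difference was 0.02 and 43 of the 74 were higher in the heterozygous libraries. Groups that did not overlap were then 7 lower and 9 higher, or 9.46% and 12.2% of the members, against 11% and 10.4% of all tested genes.

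In the knockout against the heterozygous libraries, a comparison that does not use the wildtype libraries for its means, no member passed the threshold (limma, adjusted p = 0.9996 for every member) and 0% of all tested genes passed. The median log2 difference was 0.11, with 61 higher and 13 lower, and 0.03, with 47 higher, at the same summed value per library. In the large subunit 39 of 48 were higher, or 33 after that rescaling. In the small subunit 21 of 25 were higher, or 14 after it. One member, Mrpl11, had an unadjusted p below 0.05, as had 0.587% of all tested genes. In 11 members all knockout values lay above all heterozygous values, against 2.61% of all tested genes, and in none below. The pattern was not particular to the members. Of the 76 cytosolic ribosomal protein genes, 10 lay above in this way and 1 below, and 61 were higher, with a median of 0.07.

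Those 11 members were 8 of the large subunit, Mrpl1, Mrpl2, Mrpl11, Mrpl12, Mrpl18, Mrpl24, Mrpl41 and Mrpl48, and 3 of the small subunit, Mrps5, Mrps10 and Mrps17. Mrps10, a counterpart of bacterial S10, had 5.94, 5.11 and 7.10 FPKM in the heterozygous and 8.10, 8.78 and 7.81 in the knockout libraries, a log2 difference of 0.40 ± 0.22. Its wildtype values of 5.46, 4.58 and 9.24 spanned both groups. Mrpl48 had 23.5, 22.0 and 24.8 in the heterozygous and 31.0, 28.4 and 27.8 in the knockout libraries, a difference of 0.30 ± 0.16. Mrpl12, a stalk protein that is also known to bind the mitochondrial RNA polymerase, had 19.4, 19.4 and 20.3 against 22.4, 28.1 and 20.7. Mrpl2 had 16.4, 16.9 and 16.1 against 18.2, 23.3 and 18.6. The opposite end held Mrps18b, with 11.6, 13.8 and 11.8 in the heterozygous and 10.3, 13.4 and 7.30 in the knockout libraries.

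The precision of the comparisons differed between members, with standard errors from 0.11 (Mrpl24) to 0.27 (Mrpl14) on the log2 scale. The median 95% interval (unadjusted) reached 0.41 log2 units to either side. In each of the 3 comparisons the intervals of all 74 members lay within a 2-fold change in either direction, against 86.6, 85.2 and 86.4% of all tested genes. These intervals are not adjusted for the number of genes, and differences larger than them, as in Mrpl32 and Mrpl11, did not pass the adjusted threshold.

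**Figure D5:**
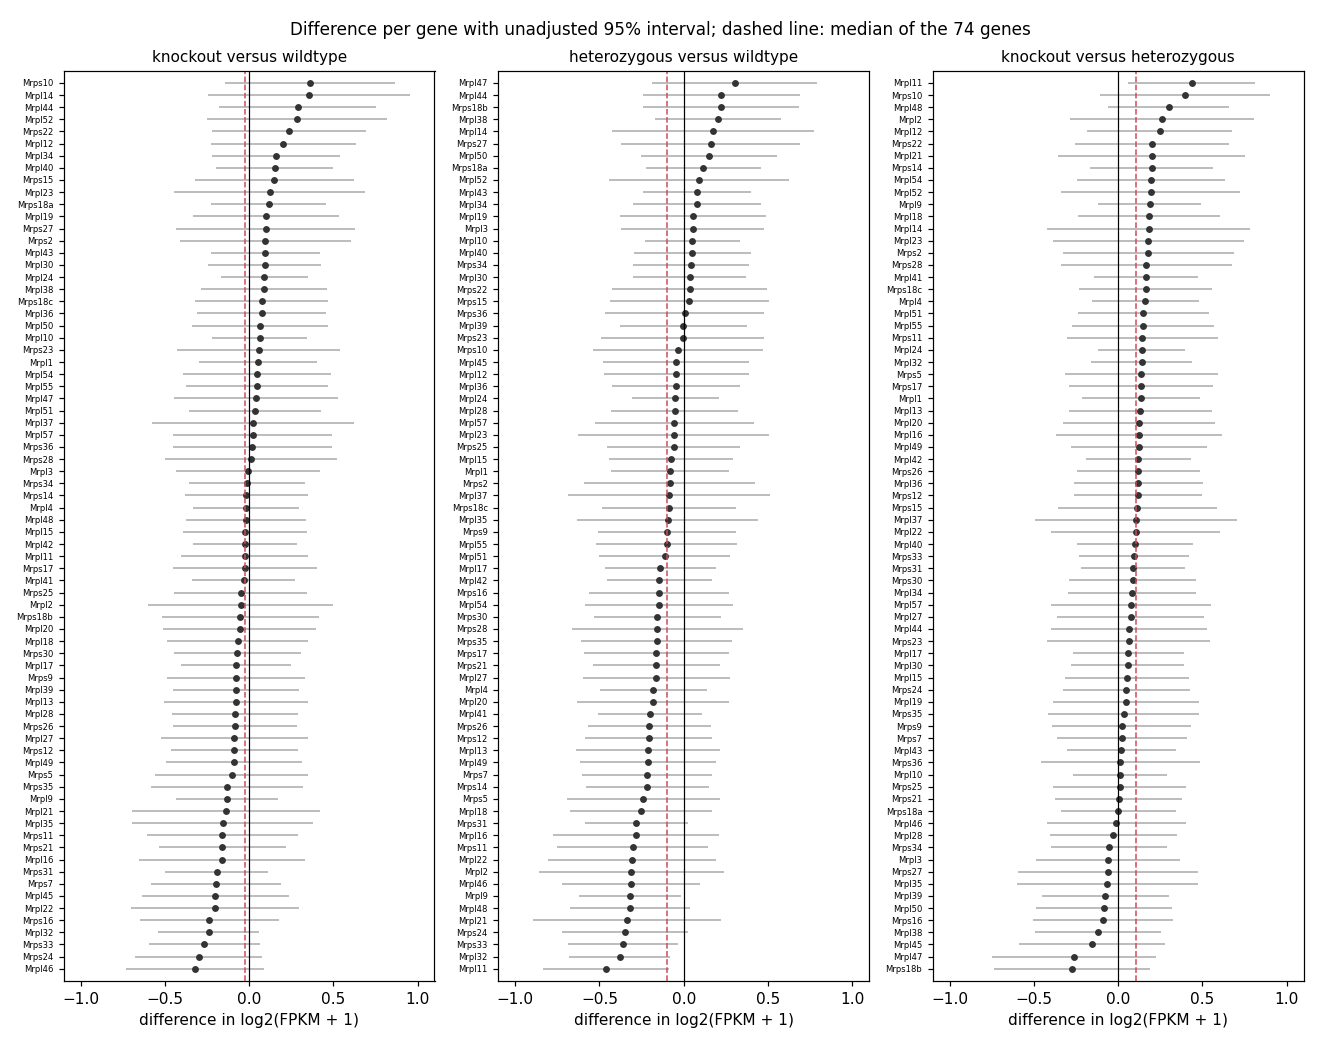
Each row is a gene, with its difference in log2(FPKM + 1) (point) and unadjusted 95% interval (line) in the 3 comparisons, each sorted by size. The dashed lines mark the medians of the 74 genes, at -0.02, -0.10 and 0.11, which become 0.04, 0.03 and 0.03 when each library is rescaled to the same summed value.

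Rescaling to the same summed value moved the median of all tested genes as well, to 0.06, 0.12 and -0.07 in the order of the comparisons above. Relative to all tested genes, the members' medians were -0.03, -0.09 and 0.10 without the rescaling and -0.02, -0.10 and 0.10 with it. Without wildtype replicate 3 the first of these was 0.10.

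Several members have a known role apart from the core of the ribosome or a known link to inherited deficiency of mitochondrial translation, and none of them passed the threshold. Mrps12, at the decoding centre, had 15.0, 13.0 and 19.6 FPKM in the wildtype, 12.4, 14.0 and 13.9 in the heterozygous and 16.9, 13.0 and 14.3 in the knockout libraries. Mrps16 ranged from 14.9 to 24.8 over the 9 libraries, Mrps22 from 6.63 to 12 and Mrps34 from 13.9 to 19.3. Mrpl3 ranged from 11.96 to 21.1, and Mrpl44, which resembles a double-strand ribonuclease, from 2.35 to 4.53. Mrps30 ranged from 11.8 to 18.4. In each of these the ranges of the 3 genotypes overlapped.

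Some proteins of the mitochondrial ribosome carry other names. Of 7 listed, 6 were tested and 0 passed in any comparison. The highest were Aurkaip1, with 33.2, 37.6 and 49.7 FPKM in the wildtype, 34.1, 28.6 and 37.6 in the heterozygous and 40.6, 34.4 and 41.4 in the knockout libraries, and Chchd1, at 22.7 to 37.5. Wildtype replicate 3 was the highest library in 4 of the 6.

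The genes that assemble the ribosome or work with it were tested in the same fit, and none passed in any comparison. Of 31 assembly factors 24 were tested. The most abundant were Mrm1, which methylates the large ribosomal RNA, at 34.3 to 62.9 FPKM, and Mpv17l2, at 14.7 to 30.9. Wildtype replicate 3 was highest in 5 of these 24 (20.8%), against 31.1% of all tested genes. In the lists that follow, the same share was 43.8% for translation factors and 20% for transcription and RNA processing. It was 29.4% for tRNA synthetases and 55.6% for biogenesis regulators. Of 17 translation factors and mRNA-binding proteins 16 were tested. Lrpprc, which stabilises mitochondrial mRNAs, ranged from 30.4 to 42.1, and Gfm1, a mitochondrial elongation factor G, from 15.2 to 25.5. Of 18 genes of mitochondrial transcription and RNA processing 15 were tested, led by Pnpt1 (32.5 to 43.5) and Hsd17b10 (20.2 to 32.4).

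Of 21 mitochondrial tRNA synthetases 17 were tested. Lars2, which charges leucine tRNA, had 458 FPKM in heterozygous replicate 2 and 23.2 to 91.5 in the other 8 libraries. Its lowest values were in heterozygous replicates 3 and 1. The SE of its differences was 0.96, and the cause of this spread was not examined. Iars2, which charges isoleucine tRNA, had 17.6 to 20.5 in 8 libraries and 29.9 in wildtype replicate 3. Of 11 regulators of mitochondrial biogenesis 9 were tested. Yy1 ranged from 31.0 to 50.03 FPKM and Nrf1 from 27.8 to 40.3. Nrf1 had 28.0, 32.3 and 40.3 in the wildtype, 33.2, 29.6 and 31.8 in the heterozygous and 34.6, 27.8 and 35.2 in the knockout libraries, so that its genotypes overlapped.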

How the data were processed

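FPKM-type values per gene and library were deposited by the authors in 1 table. TopHat, Picard, DESeq2 and the build mm10 are named in the submitters' processing notes, without versions or roles. The annotation, strandedness and gene lengths they used are not given in these sources. Values of the 14147 genes detected in 2 or more libraries all lay on multiples of a step per gene (within 0.05 of a read), which gave reads, an implied length and size factors equal to medians of ratios over 11276 genes. The implied length is the gene's constant scaled so that it equals the GENCODE transcript length for most of 660 genes with 1 transcript; 488 of them (73.9%) lay within 1.1-fold. Members had 29 to 1078 reads per library, and counting error is only part of the spread.

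Limma 3.58.1 in R 4.3.3 was fitted to log2(FPKM + 1) of the 9543 genes with at least 1 in at least 3 libraries, with 1 mean per genotype over all 9 libraries and eBayes with a trend. Tests were 2-sided with Benjamini-Hochberg adjustment over all 9543 genes and a threshold of 0.05 in each of 3 comparisons. Fold changes of low genes are understated on this scale. The fit was run on simulated data with known changes. These held no deviation shared by the genes of a library, so they do not show how the fit performs on the present data. The members and lists were chosen with earlier results of these data known, and no test over the list was made. Members were named by lowest unadjusted p (4 per comparison), largest difference among groups that do not overlap, highest and lowest level and spread, known separate role and nearness to the filter, and of other lists the 2 most abundant genes. Other genes were named after their values were seen. Deviations of same-numbered libraries from their genotype means had correlations of 0.20, 0.18 and 0.41 for knockout and heterozygous. The correlations were -0.57, 0.51 and 0.33 for knockout and wildtype, and 0.13, 0.18 and 0.00 for heterozygous and wildtype. Differently numbered libraries were not compared, so these values cannot show whether a number marks a shared source. The numbers were taken from the labels. Identifiers were matched to GENCODE M21 for 20087 rows (98.6%). Alternatives covered the pseudocount, filter, scaling, variance model, reads in place of FPKM, replicate block, depth and each library left out.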

Additional observations from a re-analysis of the deposited data

How the results depend on the processing

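In each of 20 alternatives per comparison, 0 of the 9543 genes or of the genes tested there passed limma's adjusted threshold, and the lowest adjusted p of a member was 0.128. Of 2277 differences of named members recomputed, 160 changed sign, most often (27 of 114) when wildtype replicate 3 and knockout replicate 2 were both left out, then with the same sum per library (24 of 114) and without wildtype replicate 3 (19 of 114). Without wildtype replicate 3 and knockout replicate 2 together, the median of the members between knockout and wildtype was 0.126 in place of -0.02, and with 1 library left out it ran from -0.104 to 0.113. The other medians ran from -0.19 to 0.02 (heterozygous and wildtype) and from 0.07 to 0.13 (knockout and heterozygous) with 1 library left out. Apart from the left-out libraries, the cause was not tested. With the replicate block 0 members passed, the medians stayed at -0.02, -0.10 and 0.11, and members at an unadjusted p below 0.05 went from 4 to 2 (heterozygous and wildtype) and from 1 to 0 (knockout and heterozygous). That number between heterozygous and wildtype was 10 without wildtype replicate 1, 2 without wildtype replicate 3 and 0 with the same sum per library. Between knockout and wildtype it was 5 without wildtype replicate 3. Between knockout and heterozygous it was 3 without wildtype replicate 3, and also 3 with only the libraries of the pair. In that comparison the wildtype libraries enter the estimate of the spread but not the means. Members had as few as 29 reads in a library, where counting error adds to the spread; both this and the 3 libraries per genotype limit the values.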
